A study of Mus musculus with 8 samples.

Results

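Keratins are the intermediate filament proteins of epithelial cells, and 10 of their genes were examined, of 18193 genes with a probe set that names exactly 1 gene. They are listed by name: Krt7, Krt8, Krt18, Krt19, Krt20 and Krt23 as keratins of simple epithelia, and Krt5, Krt14, Krt15 and Krt17 as keratins of stratified epithelia. The samples were CCE mouse embryonic stem (ES) cells of 129/Sv origin, a pluripotent line kept undifferentiated with leukemia inhibitory factor, and embryoid bodies, the aggregates in which such cells differentiate, grown from them for 10 days. Embryoid bodies labelled Bmi1, embryoid bodies of empty vector cells and ES cells labelled Bmi1 had 2 arrays each. The control ES cells were 1 array of untreated cells (replicate 1) and 1 array of empty vector cells (replicate 2). Per the labels, Bmi1 and vector cells had received a lentivirus with or without a mouse Bmi1 cDNA and were sorted for eGFP after 2 passages, with no cloning step given, and the untreated cells had received no virus. The sources used here do not name the promoter that drove the cDNA. Nothing in the labels says that the 2 arrays of a group came from separate cultures, so the spread behind the p-values is that between arrays and may be technical.

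A keratin filament is built from pairs of a type I and a type II keratin. Krt8 (type II) and Krt18 (type I) are the first pair made in the mouse embryo, in trophectoderm, and later mark simple epithelia such as gut, liver and the extraembryonic endoderm. Krt7 (type II) and Krt19 (type I) add to that pair in ductal and other simple epithelia, Krt20 marks gut and urothelial cells, and Krt23 is a type I keratin of several simple epithelia. Krt5 (type II) and Krt14 (type I) form the filaments of basal cells in stratified epithelia such as the epidermis, where Krt15 is a further basal keratin and Krt17 is made in hair follicles and in injured skin.

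The value of a gene is its signal in log2 units as deposited, from the brightest probe set that names it alone. Since probe sets differ in brightness for reasons other than abundance, levels are compared between arrays and not between genes. The median over all probe sets lay between 5.57 and 5.97 log2 units on the 8 arrays, and a gene was tested where it lay above that median on at least 2 arrays. The value distributions fell into 3 sets, 1 of the first replicates of the embryoid bodies, 1 of their second replicates and 1 of all ES cells. Sorted values differed on average by at most 0.0325 log2 units within a set and at least 0.189 between sets. Each embryoid body set holds an array labelled Bmi1 and a vector array, so a Bmi1 difference can be read within a set, whereas stage and set cannot be told apart. Signal of Bmi1 itself went against the labels. In embryoid bodies the arrays labelled Bmi1 read 7.48 and 8.51 and the vector arrays 9.35 and 9.67, and 5.68 and 6.28 in ES cells labelled Bmi1 against 7.41 and 7.74 in control ES cells. The sources used here do not place its probe sets inside or outside the cDNA, so samples are called "labelled Bmi1" and each direction below follows that label.

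Krt7, Krt8, Krt18 and Krt19 rose in embryoid bodies over ES cells in both stage comparisons. For Krt8, Krt18 and Krt19 the rise was 7.41-fold to 18.2-fold in vector samples and 6.27-fold to 10.8-fold in samples labelled Bmi1, while Krt7 was dim in ES cells and is given no fold. Krt20 and Krt23 were dim on every array. Among the stratified keratins 1 probe set of Krt17 fell to a dim signal in embryoid bodies and another did not, Krt5 did not pass the test, and Krt14 and Krt15 were too dim to be tested. Between the arrays labelled Bmi1 and their controls no keratin passed the test at either stage, although the 4 bright simple keratins had the higher mean in the arrays labelled Bmi1 at both stages.

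**Figure D1:**
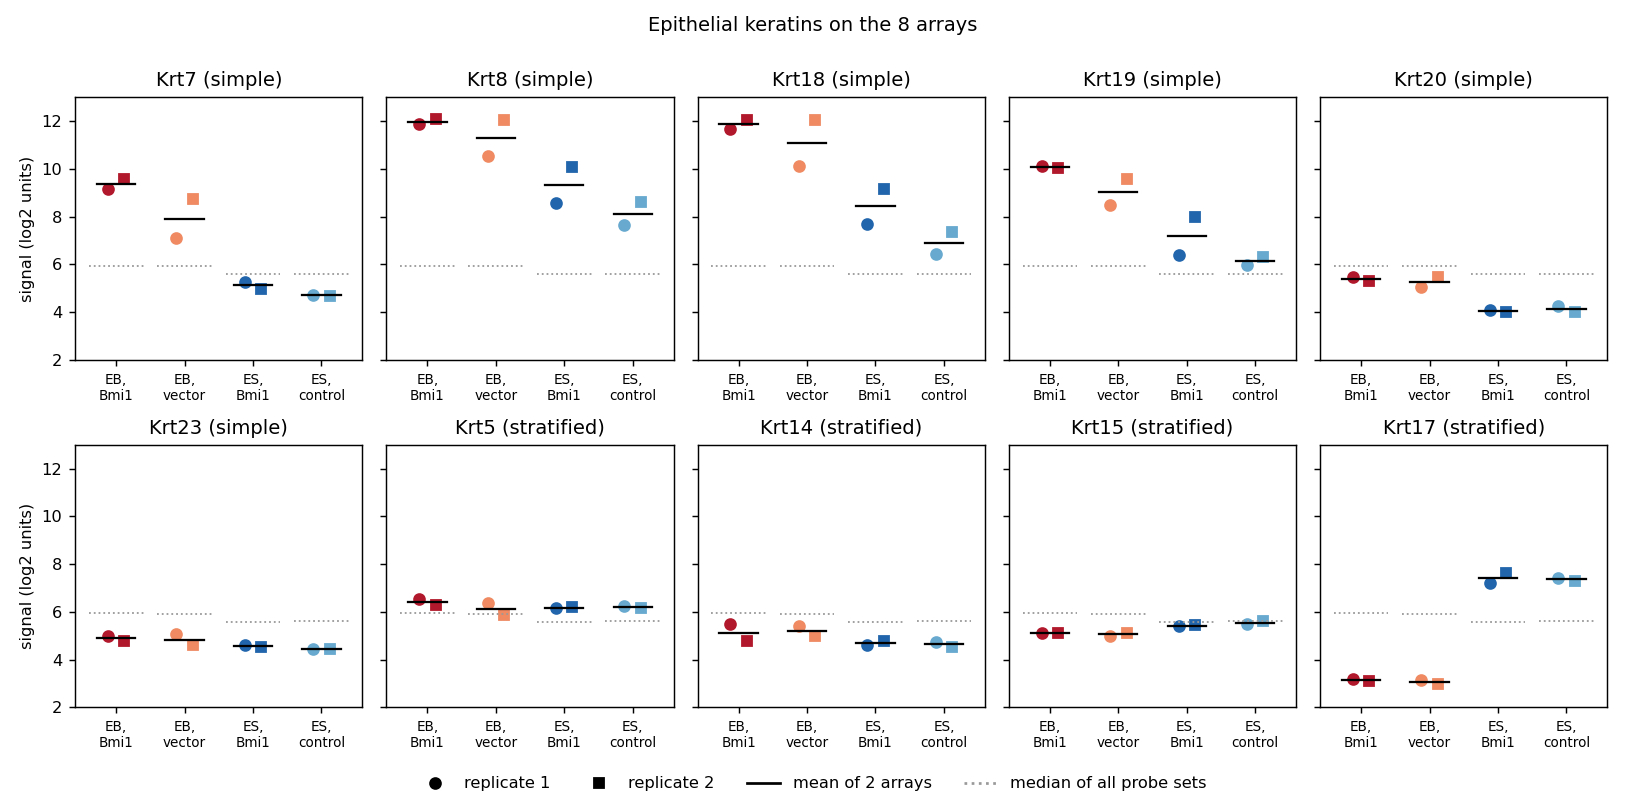
Signal of the 10 keratin genes in log2 units on each of the 8 arrays, 1 panel per gene, with embryoid bodies labelled Bmi1 left of vector embryoid bodies and ES cells labelled Bmi1 left of control ES cells. Circles are replicate 1 and squares replicate 2 (for control ES cells, untreated and empty vector), black lines are group means, and the grey dotted line is the median of all probe sets; Krt7, Krt8, Krt18 and Krt19 are high in embryoid bodies, Krt17 is high in ES cells, and the other 5 stay near or below the median.

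Krt8 and Krt18 lie next to each other on mouse chromosome 15, separated by 23873 bases on GRCm38.p6, with Krt7 and Krt5 in the same type II cluster region. Krt8 spans chr15:101996711-102004342, Krt18 chr15:102028216-102032026, Krt7 chr15:101412403-101427806 and Krt5 chr15:101707069-101712905. Krt18 is the one type I gene there. The other 6 type I genes lie on chromosome 11, between 99428385 (Krt20) and 100261029 (Krt17). The promoters of the 3 simple keratins of chromosome 15, which rose with the stage, are shown with that of Krt5, their stratified neighbour that did not pass the test. Each runs from 250 bases before to 50 bases after the gene start, 5′ to 3′ on the gene's strand, from RefSeq on GRCm38.p6: Krt7 is chr15:101412153-101412452 (plus strand), Krt8 is chr15:102004293-102004592 (minus strand), Krt18 is chr15:102027966-102028265 (plus strand) and Krt5 is chr15:101712856-101713155 (minus strand). Capitals mark matches, on either strand, to a TATA box (TATAAA), an AP-1 site (TGANTCA), a GC box (GGGCGG) or an E2 box (CACCTG).
Krt7: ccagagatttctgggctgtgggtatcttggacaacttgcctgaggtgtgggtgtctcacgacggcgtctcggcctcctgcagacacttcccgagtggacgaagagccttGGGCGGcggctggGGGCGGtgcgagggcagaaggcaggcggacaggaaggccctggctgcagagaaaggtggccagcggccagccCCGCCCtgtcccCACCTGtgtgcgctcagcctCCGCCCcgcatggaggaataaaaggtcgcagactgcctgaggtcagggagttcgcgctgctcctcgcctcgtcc
Krt8: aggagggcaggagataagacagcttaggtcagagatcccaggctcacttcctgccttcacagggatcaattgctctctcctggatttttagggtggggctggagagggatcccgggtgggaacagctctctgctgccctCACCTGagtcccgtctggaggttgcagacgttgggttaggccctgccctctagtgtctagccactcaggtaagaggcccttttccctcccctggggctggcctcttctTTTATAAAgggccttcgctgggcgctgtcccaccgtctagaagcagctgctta
Krt18: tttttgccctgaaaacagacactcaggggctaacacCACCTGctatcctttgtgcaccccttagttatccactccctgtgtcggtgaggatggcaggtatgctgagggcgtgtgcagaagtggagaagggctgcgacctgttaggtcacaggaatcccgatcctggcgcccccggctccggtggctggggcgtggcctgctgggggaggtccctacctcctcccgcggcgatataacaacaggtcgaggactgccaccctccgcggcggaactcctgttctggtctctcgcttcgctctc
Krt5: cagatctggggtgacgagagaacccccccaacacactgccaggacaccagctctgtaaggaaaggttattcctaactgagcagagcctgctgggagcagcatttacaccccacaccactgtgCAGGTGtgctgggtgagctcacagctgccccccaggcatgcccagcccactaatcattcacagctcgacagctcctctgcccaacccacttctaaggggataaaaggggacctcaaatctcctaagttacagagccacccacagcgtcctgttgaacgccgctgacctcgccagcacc

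The 4 promoters have different motif contents. The E2 box, the sequence bound by Snail and Zeb repressors of epithelial genes, was found once in each of them, and in 5 of the 7 keratin promoters with an entry, against 20.2% of all 32851 promoters in the table. The GC box, bound by Sp1, was found 4 times in Krt7 and in no other keratin promoter, against 35.7% of all promoters. TATAAA was found in Krt8, where a match on each strand overlaps the other across the gene start, and in Krt20, against 13.6% of all promoters. The AP-1 site was found in none of the 7, against 7.81% of all. None of the matches overlaps a match of another motif. A match is a description of the letters, not a binding site. Of the 10 genes, Krt15, Krt17 and Krt19 had no entry. The entry of Krt14, chr11:100205981-100206280 (minus strand), lies inside the gene (chr11:100203162-100207510) and not at its outer 5′ end.

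The first comparison asked how keratins differed between vector embryoid bodies and control ES cells. Krt8 read 10.53 and 12.04 in vector embryoid bodies against 7.64 and 8.59 in control ES cells. Its type I partner Krt18 read 10.10 and 12.06 in vector embryoid bodies against 6.43 and 7.37 in control ES cells. Both genes were well above the array median already in ES cells, and for both the embryoid body arrays lay above the ES cell arrays without overlap. Krt19 read 8.49 and 9.58 in vector embryoid bodies against 5.98 and 6.30 in control ES cells. Krt7 read 7.10 and 8.73 in vector embryoid bodies against 4.73 and 4.69 in control ES cells. Unlike the other three, Krt7 lay below the array median on all 4 ES cell arrays, so it entered the test through the embryoid body arrays in which it was high. The log2 differences were 3.17 ± 0.63 for Krt8 (adjusted p = 0.00449), 4.18 ± 0.72 for Krt18 (adjusted p = 0.00237), 2.89 ± 0.54 for Krt19 (adjusted p = 0.00333) and 3.20 ± 0.47 for Krt7 (adjusted p = 0.00132), each by limma with the moderated SE and 2 arrays against 2. Of all tested genes, 3.14% had a larger rise than Krt8, 1.27% than Krt18 and 3.94% than Krt19.

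Krt20 and Krt23 were not tested, since neither lay above the median on any array. Krt20 read 5.06 and 5.47 in vector embryoid bodies against 4.26 and 4.03 in control ES cells, a difference of 1.12 log2 units without overlap. Krt23 read 5.05 and 4.61 in vector embryoid bodies against 4.43 and 4.46 in control ES cells, a difference of 0.39, also without overlap. No fold is given for genes this dim. With another scaling of the arrays Krt20 differed by 0.76 (quantile) or 0.80 (median centring) and Krt23 by 0.05 or 0.07.

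Krt17 moved the other way. It read 3.17 and 3.0 in vector embryoid bodies against 7.42 and 7.30 in control ES cells, and in the samples labelled Bmi1 3.19 and 3.10 in embryoid bodies against 7.22 and 7.64 in ES cells. All 4 embryoid body arrays lay far below the array median and all 4 ES cell arrays above it, so Krt17 entered the test through the ES cell arrays. Its log2 difference was -4.27 ± 0.19 in vector samples (adjusted p = 2.45e-05 by limma) and -4.29 ± 0.19 in samples labelled Bmi1 (adjusted p = 3.26e-05). A second probe set that names Krt17 alone disagrees. It lay below the median on all 8 arrays, at 3.62 to 4.20 in embryoid bodies and 3.34 to 3.55 in ES cells, with differences of 0.44 and 0.33. The fall therefore rests on 1 probe set. Krt42, the next gene on chromosome 11, begins 1852 bases from Krt17 and was looked at after the values were seen. One of its probe sets differed by -2.31 in vector samples and -2.24 in samples labelled Bmi1, and the other by -0.26 and -0.07. Probes of near-identical keratins may read each other's transcripts, which was not tested.

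None of the other stratified keratins was called, and 2 of these 3 were not tested. Krt5 read 6.36 and 5.89 in vector embryoid bodies against 6.23 and 6.15 in control ES cells, and these ranges overlap. Its log2 difference was -0.07 ± 0.21 with an adjusted p of 0.802 by limma, and its 95% interval ran from -0.56 to 0.42. Krt14 read 5.42 and 4.98 in vector embryoid bodies against 4.75 and 4.52 in control ES cells, a difference of 0.56 without overlap, while its remaining 2 probe sets gave -0.23 and -0.32. Krt15 read 4.99 and 5.12 in vector embryoid bodies against 5.47 and 5.62 in control ES cells, a difference of -0.49 without overlap. All of these Krt14 values and all but 1 of the Krt15 values lay below the array median, and neither gene was tested.

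The second comparison set embryoid bodies labelled Bmi1 against ES cells labelled Bmi1, on other arrays than the first. Krt8 read 11.86 and 12.08 in these embryoid bodies against 8.58 and 10.06 in the ES cells. Krt18 read 11.68 and 12.04 in the embryoid bodies against 7.69 and 9.17 in the ES cells. Krt19 read 10.13 and 10.04 in the embryoid bodies against 6.39 and 7.97 in the ES cells. In each of these the second ES cell array was well above the first, yet below both embryoid body arrays. Krt7 read 9.17 and 9.58 in the embryoid bodies against 5.25 and 4.99 in the ES cells, so here the ES cell arrays lay close together. The log2 differences were 2.65 ± 0.63 for Krt8 (adjusted p = 0.00966), 3.43 ± 0.72 for Krt18 (adjusted p = 0.00548), 2.90 ± 0.54 for Krt19 (adjusted p = 0.00333) and 4.26 ± 0.47 for Krt7 (adjusted p = 4.79e-04), by limma with 2 arrays against 2. The call of Krt8 was lost without replicate 1 of the ES cells labelled Bmi1, where its difference was 1.91 with an adjusted p of 0.0635. Krt5 read 6.55 and 6.27 in the embryoid bodies against 6.15 and 6.22 in the ES cells, a difference of 0.23 ± 0.21 without overlap and with an adjusted p of 0.374. The dim genes differed by 1.34 (Krt20), 0.33 (Krt23), 0.43 (Krt14) and -0.29 (Krt15).

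In each stage comparison 4 of the 6 simple keratins were called higher and 2 were not tested, while of the 4 stratified keratins 1 was called lower, 1 was tested and not called, and 2 were not tested. Krt7 had passed the filter only through embryoid bodies, as had 8.5% of all tested genes. Krt17 had passed it only through ES cells, as had 4.66%. Over all tested genes 22.7% were called higher and 35.8% lower in vector samples, or 58.5% in either direction, and in samples labelled Bmi1 21.2% were called higher and 38% lower, or 59.2% in all. A stage call was thus common. By arrays as deposited, all 6 simple keratins were higher in embryoid bodies without overlap in both comparisons. Of all genes, tested or not, 34.6% were so in vector samples and 34.2% in samples labelled Bmi1. Of the 4 stratified keratins 1 was higher and 2 were lower without overlap in each comparison, against 40.4% and 41.2% of all genes lower. The higher one was Krt14 in vector samples and Krt5 in samples labelled Bmi1, and the lower ones were Krt15 and Krt17 in both. These overlaps depended on scaling. With each array centred on its median Krt23 overlapped in both comparisons, and Krt14 and Krt5 were no longer higher without overlap. The shares of all genes were not counted again with that scaling. The split of the calls depended on scaling too: 2946 genes were called higher and 4647 lower in vector samples as deposited, 3245 and 3425 with quantile normalization, and 2201 and 6058 with each array centred on its median. In samples labelled Bmi1 it was 2750 and 4938 as deposited, 3118 and 3475 with quantile normalization, and 1885 and 6372 with median centring. The 5 keratins called were called in the same direction under both scalings, and with a block for the embryoid body set, which called 74.8% of tested genes in vector samples and 74.4% in samples labelled Bmi1. The median difference over all 6 simple keratins was 3.03 log2 units in vector samples and 2.78 in samples labelled Bmi1. Over all 4 stratified keratins it was -0.28 and -0.03, against -0.24 and -0.27 over all tested genes. The last pair of values was -0.04 and -0.03 with quantile normalization and -0.56 and -0.62 with median centring, and relative to it the simple keratins were higher each time. The RNA came from whole cultures, in which fewer cells of a type and less RNA per cell cannot be told apart.

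**Figure D2:**
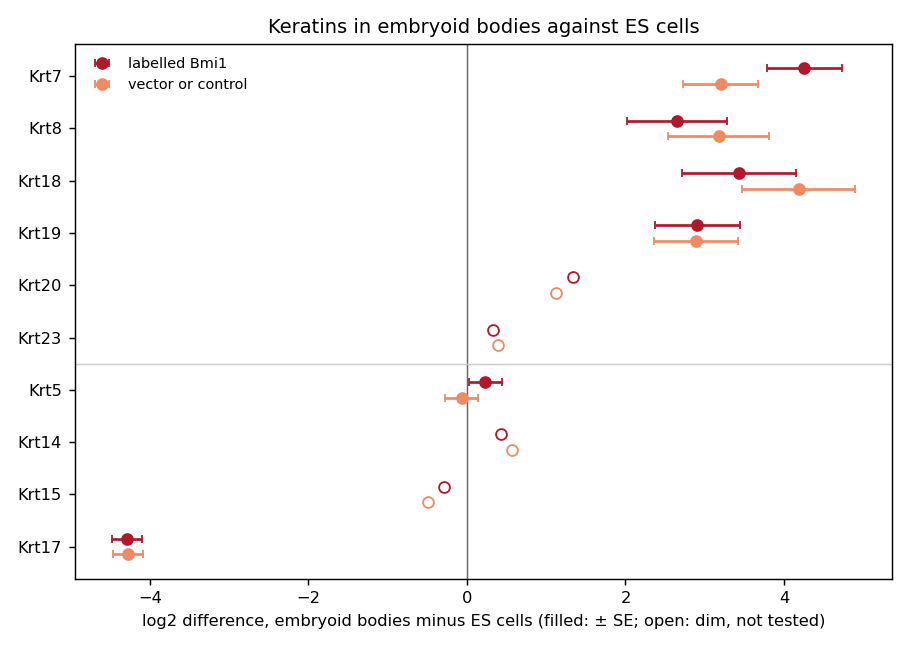
Difference between embryoid bodies and ES cells in log2 units for the 10 keratins, in samples labelled Bmi1 and in vector or control samples, with the SE of the fit as bars for tested genes and open symbols for the 4 genes too dim to test. Krt7, Krt8, Krt18 and Krt19 lie between 2.65 and 4.26, Krt17 lies at -4.27 and -4.29, and the rest lie between -0.49 and 1.34.

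All 3 probe sets of Krt8 gave the same picture. The other 2 differed between the stages by 3.20 and 2.86 in vector samples and by 2.63 and 2.36 in samples labelled Bmi1. They differed between the arrays labelled Bmi1 and their controls by 0.59 and 0.70 in embryoid bodies and by 1.15 and 1.20 in ES cells.

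The third comparison set embryoid bodies labelled Bmi1 against vector embryoid bodies, on the same day and in the same 2 sets. Krt7 read 9.17 and 9.58 in Bmi1-labelled embryoid bodies against 7.10 and 8.73 in vector embryoid bodies. Krt19 read 10.13 and 10.04 in Bmi1-labelled embryoid bodies against 8.49 and 9.58 in vector embryoid bodies. These 2 genes were the members whose arrays did not overlap, and both had the higher values in the arrays labelled Bmi1, as had 9.36% of all genes, tested or not. Krt8 read 11.86 and 12.08 in Bmi1-labelled embryoid bodies against 10.53 and 12.04 in vector embryoid bodies. Krt18 read 11.68 and 12.04 in Bmi1-labelled embryoid bodies against 10.10 and 12.06 in vector embryoid bodies. For both, replicate 1 of the vector embryoid bodies was low and the other 3 arrays lay close together.

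No member was called among the 6 tested, against 0.139% of all tested genes. At an unadjusted p under 0.05 limma gave 1 of the 6, against 7.06% of all tested genes. That gene was Krt7, with a difference of 1.46 ± 0.47 log2 units (SE, n = 2 and 2 arrays), a 95% interval from 0.34 to 2.57, and an adjusted p of 0.513. With a block for the embryoid body set, which called 2.09% of all tested genes, the adjusted p of Krt7 was 0.0511 and again no member was called, with 2 of the 6 and 21.3% of all tested genes at an unadjusted p under 0.05. Without replicate 2 of the vector embryoid bodies Krt7 was called, at 2.27 with an adjusted p of 0.012, and without replicate 1 its difference was 0.64. Krt19 differed by 1.05 ± 0.54 (adjusted p = 0.773), Krt18 by 0.78 ± 0.72 (adjusted p = 0.941), Krt8 by 0.68 ± 0.63 (adjusted p = 0.941) and Krt5 by 0.29 ± 0.21 (adjusted p = 0.884).

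The differences depended on the set. Within the replicate 1 arrays the difference was 2.07 for Krt7, 1.64 for Krt19, 1.58 for Krt18 and 1.33 for Krt8. Within the replicate 2 arrays it was 0.85 for Krt7, 0.46 for Krt19, -0.02 for Krt18 and 0.04 for Krt8. The first set thus gave each of the 4 bright simple keratins a difference above 1 log2 unit, and the second gave 2 of them a difference near 0. Over all 6 simple keratins the median difference was 0.73, with 1.45 in the first set and 0.11 in the second. Over the 4 stratified keratins it was 0.06, with 0.11 and 0.05 within the sets, and over all tested genes it was -0.04. Krt5 differed by 0.20 and 0.38 within the sets, and Krt17 stayed at 3.0 to 3.19 on all 4 arrays. Without replicate 1 of the vector embryoid bodies the median of the simple keratins was 0.11, and Krt8 and Krt18 turned to -0.07 and -0.20. Without replicate 2 the median was 1.52.

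The fourth comparison set ES cells labelled Bmi1 against control ES cells, before differentiation. Krt18 read 7.69 and 9.17 in ES cells labelled Bmi1 against 6.43 and 7.37 in control ES cells. Krt8 read 8.58 and 10.06 in ES cells labelled Bmi1 against 7.64 and 8.59 in control ES cells. Krt19 read 6.39 and 7.97 in ES cells labelled Bmi1 against 5.98 and 6.30 in control ES cells. In each of these genes replicate 2 labelled Bmi1 was the highest of the 4 and the untreated array the lowest. The groups overlapped narrowly for Krt8, and not for Krt18 and Krt19. Krt7 read 5.25 and 4.99 in ES cells labelled Bmi1 against 4.73 and 4.69 in control ES cells, without overlap and below the array median throughout. Krt23 was also higher without overlap, by 0.12, and Krt15 differed by -0.13 without overlap. Among all genes, tested or not, 22.6% were higher without overlap and 19.4% lower, so 4 and 1 of the 10 members stand beside a wide background.

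None of the 6 tested members was called by limma, against 0.0462% of all tested genes, and none had an unadjusted p under 0.05, against 6.29% of all tested genes. With a block for the embryoid body set 1.66% of all tested genes and none of the members were called, and 1 of the 6 members and 13.5% of all tested genes had an unadjusted p under 0.05. Krt18 differed by 1.53 ± 0.72 log2 units, with a 95% interval from -0.15 to 3.22 and an adjusted p of 0.903, or 0.308 with the block. Krt8 differed by 1.21 ± 0.63, with a 95% interval from -0.28 to 2.70 and an adjusted p of 1. Krt19 differed by 1.04 ± 0.54 and Krt7 by 0.40 ± 0.47, each with an adjusted p of 1. The median was 0.72 over the 6 simple keratins, 0.03 over the 4 stratified ones and 0.00 over all tested genes. It was 0.36 over the simple keratins without replicate 2 labelled Bmi1. Krt5 and Krt17 differed by -0.01 and 0.07. The wide intervals of Krt8 and Krt18 include 0.

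**Figure D3:**
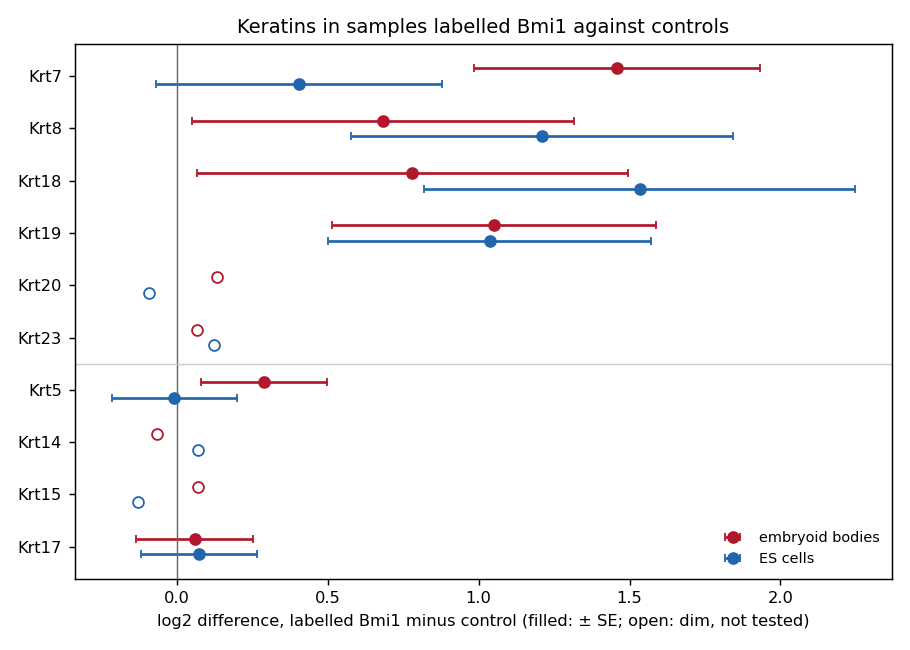
Difference between arrays labelled Bmi1 and their controls in log2 units for the 10 keratins, in embryoid bodies and in ES cells, with the SE of the fit as bars for tested genes and open symbols for the 4 genes too dim to test. Krt7, Krt8, Krt18 and Krt19 lie above 0 at both stages, between 0.40 and 1.53, and no gene passed the test.

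Whether the Bmi1 difference itself changed with the stage was tested as an interaction, embryoid bodies minus ES cells. It was 1.05 ± 0.67 log2 units for Krt7 (adjusted p = 0.999 by limma, and 0.228 with the block), -0.53 ± 0.89 for Krt8, -0.75 ± 1.01 for Krt18, 0.01 ± 0.76 for Krt19, 0.30 ± 0.29 for Krt5 and -0.01 ± 0.27 for Krt17. No member was called, and 0% of all tested genes were, with 6.83% of all tested genes and none of the members at an unadjusted p under 0.05. With the block 0.824% of all tested genes and no member were called, and 17.3% of all tested genes and 1 of the 6 members had an unadjusted p under 0.05. The wide SEs of Krt8, Krt18 and Krt19 come with the spread between replicates described next.

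In 3 of the 4 groups replicates of Krt8 and Krt18 lay further apart than those of nearly all genes. Between the 2 arrays of ES cells labelled Bmi1, Krt19 differed by 1.58 log2 units, Krt8 by 1.48 and Krt18 by 1.47, against a median gap of 0.14 over all tested genes. Of the tested genes, 0.0924% had a wider gap than Krt19, 0.116% than Krt8 and 0.123% than Krt18. Krt7 differed by 0.26 there, and 23.8% of genes had a wider gap. Between the untreated and the empty vector ES cells Krt8 differed by 0.96 and Krt18 by 0.94, against a median gap of 0.13, and 0.354% and 0.385% of genes had wider gaps. Krt19 differed by 0.32 between these arrays and Krt7 by 0.039, with wider gaps in 13.1% and 82.6% of genes. In vector embryoid bodies the gaps were 1.96 for Krt18, 1.63 for Krt7, 1.51 for Krt8 and 1.09 for Krt19, with a median gap of 0.41 over all tested genes. In embryoid bodies labelled Bmi1 the gap was 0.41 for Krt7, 0.36 for Krt18, 0.22 for Krt8 and 0.096 for Krt19, on both sides of the median of 0.34, and 41.1% to 83.8% of genes had wider gaps. Krt5 and Krt17 had gaps of 0.07 to 0.47 in the 4 groups.

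The 4 bright simple keratins also resembled each other in pattern across the 8 arrays. The dim Krt20 and Krt23 were closer to Krt5, Krt14 and Krt15 than to these 4, though not to Krt17. As a measure of likeness each gene was centred on its own mean and the root mean square difference between genes was taken over the 8 arrays. It was 0.25 log2 units between Krt8 and Krt19, 0.48 between Krt8 and Krt18, 0.58 between Krt18 and Krt19, and 0.69 to 0.76 between Krt7 and these 3. Krt23 lay 1.47 to 1.97 from these 4 genes, 0.17 from Krt5 and 0.18 from Krt14. Krt20 lay 1.08 to 1.56 from the 4, 0.46 from Krt14 and 0.50 from Krt23. Krt17 lay 4.14 from Krt18, 2.76 from Krt20 and 2.32 from Krt23. Genes that vary little across the arrays lie close by this measure, whatever their pattern. Among all tested genes outside the 10, the most like Krt8 were Dsp at 0.37, Col4a1 at 0.47 and Greb1l at 0.50. The most like Krt18 were Col4a2 at 0.51, Tspan12 at 0.60 and Dsp at 0.60, and the most like Krt19 were Dsp at 0.34, Cmpk2 at 0.42 and Peg10 at 0.51. Krt17 was most like Tcf15 at 0.30, Pik3cd at 0.31 and 4930444M15Rik at 0.31, and Krt5 most like Fkbp1b at 0.05, Fam162a at 0.07 and Ppp1r18 at 0.07. The 8 arrays share stages and sets, so these distances are no measure of independent samples.

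Dsp encodes desmoplakin, the protein that ties keratin filaments to desmosomes. It read 11.07 and 11.52 in Bmi1-labelled embryoid bodies against 10.62 and 11.05 in vector embryoid bodies, and 7.44 and 9.22 in ES cells labelled Bmi1 against 7.33 and 7.75 in control ES cells. As with Krt8, Krt18 and Krt19, replicate 2 of the ES cells labelled Bmi1 was well above the other ES cell arrays. Dsp rose with the stage by 3.29 ± 0.53 log2 units in vector samples (adjusted p = 0.00188) and by 2.97 ± 0.53 in samples labelled Bmi1 (adjusted p = 0.00292). The keratin anchoring list, of desmosome, plakin and hemidesmosome genes, held 20 genes, of which 19 had a probe set and 16 were tested. In vector samples 4 of them were called higher and 4 lower, and in samples labelled Bmi1 4 higher and 2 lower, whereas with quantile normalization it was 5 and 0 in vector samples and 6 and 1 in samples labelled Bmi1. The 4 of 16 called higher stand beside 22.7% and 21.2% of all tested genes, and the lower ones beside 35.8% and 38%. Of all 12982 tested genes quantile normalization called 3245 higher and 3425 lower in vector samples, and 3118 and 3475 in samples labelled Bmi1. Also called higher in both were Dsc2, a desmosomal cadherin (5.53 and 3.29), Pkp1, a desmosomal plakophilin that was dim on all ES cell arrays (3.26 and 3.42), and Ppl, a plakin (1.08 and 1.36). Dsc2 lay below the array median in control ES cells, at 4.75 and 4.97, so its differences against them start from a dim signal. Neither comparison between arrays labelled Bmi1 and controls called a member of the list, and with the block Dsc2 was called higher in ES cells (1.75, adjusted p = 0.0292 with the block). The block called 1.66% of all tested genes in ES cells. In embryoid bodies Dsc2 differed by -0.48, and with the block its interaction was called as well (-2.24, adjusted p = 0.0436 with the block). So were the interactions of 0.824% of all tested genes. In embryoid bodies 17 of 19 anchoring genes had the higher mean in the arrays labelled Bmi1, with a median of 0.19 against -0.04 over all tested genes. The genes were read on the same arrays, and the list was not tested as a set.

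Junction and adhesion genes were called in both directions across the stages. Of 15 tested, 3 were called higher and 4 lower in vector samples, and 3 higher and 2 lower in samples labelled Bmi1, shares near or below those of all tested genes. With quantile normalization it was 4 higher and 2 lower in both, and with median centring 2 higher and 5 lower in both. Of all 12982 tested genes quantile normalization called 3245 higher and 3425 lower in vector samples, and 3118 and 3475 in samples labelled Bmi1. With median centring these counts were 2201 and 6058, and 1885 and 6372. Cldn3, a claudin of tight junctions, rose by 1.04 and 1.43, and Crb3, an apical polarity protein, by 0.96 and 1.06. Spint2, a protease inhibitor of epithelia, fell (log2 differences of -3.06 and -3.20), and Epcam, an adhesion protein made by ES cells as well as by epithelia, fell as well (-2.21 and -2.35). Of these calls that of Epcam in vector samples was lost with quantile normalization, at -1.44 with an adjusted p of 0.0538. In embryoid bodies 13 of the 15 had the higher mean in the arrays labelled Bmi1, with a median of 0.56 against -0.04 over all tested genes. That median was 0.90 within the replicate 1 arrays and 0.04 within the replicate 2 arrays, and the list was not tested as a set. None was called there, and with the block Cldn3 was called higher (0.70, adjusted p = 0.0341 with the block). The block called 2.09% of all tested genes in that comparison. The mean signal of the list was 8.65 and 9.01 in Bmi1-labelled embryoid bodies against 7.67 and 8.98 in vector embryoid bodies. Replicate 1 of the vector embryoid bodies was thus the low array, as for Krt8 and Krt18. In ES cells 14 of the 15 had the higher mean in the arrays labelled Bmi1, with a median of 0.30 against 0.00 over all tested genes. There the mean signal of the list was 9.06 and 9.18 with the Bmi1 label against 8.64 and 8.61 in control ES cells. None was called in ES cells, with or without the block.

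Regulators of keratin and epithelial genes were mixed. Of 20, 16 were tested, with 3 called higher and 6 lower in vector samples and 3 higher and 4 lower in samples labelled Bmi1. These shares are again near or below those of all tested genes, with 6 of 16 lower beside 35.8%. With quantile normalization the counts were 4 and 7 in vector samples and 5 and 5 in samples labelled Bmi1. Over all 12982 tested genes that scaling called 3245 higher and 3425 lower in vector samples, and 3118 and 3475 in samples labelled Bmi1. The 7 of 16 lower was a larger share than that of all tested genes. Ets2, a factor of trophoblast cells, rose by 1.76 and 1.37, and Tfap2a, a factor of surface ectoderm that was dim on all ES cell arrays, rose by 1.70 and 1.84. Klf4 and Klf5, factors of both ES cells and epithelia, fell, with log2 differences of -3.28 and -3.53 in vector samples and -2.40 and -3.16 in samples labelled Bmi1. None was called between arrays labelled Bmi1 and their controls, with or without the block. Among the 38 keratins outside the 10, 15 were tested, and in each stage comparison 3 were called higher and 2 lower. Over all tested genes 22.7% and 21.2% were called higher and 35.8% and 38% lower. Of the 3 called higher, Krt73 and Krt75 had passed the filter only through embryoid bodies, and 2 of the 15 had passed only through ES cells. With quantile normalization the counts became 1 and 3 in vector samples and 0 and 2 in samples labelled Bmi1. Krt10, a keratin of differentiating epidermal cells, was called lower in both stage comparisons, with log2 differences of -0.96 and -1.06. Of 3 tested intermediate filament genes of non-epithelial cells 1 was called in each stage comparison, Vim of mesenchymal cells, which rose by 1.49 and 1.28. Des of muscle differed by -0.17 and -0.51 and Nes of neural progenitors by 0.25 and -0.38.

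Several tissues of an embryoid body can make simple keratins, and markers of most of them moved with the stage as well. Of 10 tested trophoblast markers 7 were called higher in vector samples and 8 in samples labelled Bmi1, and none lower. However, 5 of the 10 (Hand1, Gata3, Plac1, Peg10 and Rhox9) lay above the array median on no ES cell array and so were tested because they were high in embryoid bodies, as were 8.5% of all tested genes. Of 12 tested visceral endoderm markers 10 and 9 were called higher and 0 and 1 lower, and 4 of the 12 (Afp, Sox17, Gata4 and Gata6) had likewise passed only through embryoid bodies. Afp, the fetal serum protein of endoderm, read 11.42 to 12.37 in embryoid bodies against 2.69 to 2.89 in ES cells. All 10 ES cell markers fell in both, with medians of -2.99 and -3.08, and with quantile normalization 8 and 6 of them were called lower. Of 7 tested surface ectoderm and epidermis markers 1 was called higher (Pkp1) and 2 lower in each, and the mean signal of that list stayed between 5.67 and 5.97 on all 8 arrays. Of 5 tested mesothelium markers 4 were called higher and 1 lower in vector samples, and 0 higher and 1 lower in samples labelled Bmi1, and with quantile normalization 1 was called higher and 1 lower in vector samples. Pkp1 and the mesothelium marker Upk3b had also passed the filter only through embryoid bodies, and 1 marker of each list only through ES cells. Over all tested genes 22.7% were called higher and 35.8% lower in vector samples, and 21.2% and 38% in samples labelled Bmi1. With quantile normalization it was 3245 higher and 3425 lower of 12982 in vector samples, and 3118 and 3475 in samples labelled Bmi1.

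Between embryoid bodies the tissues went different ways, and no marker was called without the block. No list was tested as a set. Mean signal of the trophoblast list was 8.10 and 8.25 in Bmi1-labelled embryoid bodies against 6.84 and 7.46 in vector embryoid bodies, without overlap. Of its 12 markers, 10 had the higher mean in the arrays labelled Bmi1, with a median difference of 1.19, and 1.17 and 1.01 within the sets. With the block Plac1 (1.49, adjusted p = 0.0174) and Peg10 (1.26, adjusted p = 0.0265), both placental genes, were called higher. Of all tested genes the block called 2.09% between embryoid bodies. Mean signal of the visceral endoderm list was 7.82 and 7.78 in Bmi1-labelled embryoid bodies against 8.04 and 8.54 in vector embryoid bodies, with a median difference of -0.51 and 2 of 12 tested called lower with the block. The mesothelium list read 6.03 and 5.62 in Bmi1-labelled embryoid bodies against 6.76 and 5.94 in vector embryoid bodies, with a lower mean in the arrays labelled Bmi1 for all 7 markers. Its median was -0.61 within the replicate 1 arrays and -0.09 within the replicate 2 arrays. On the latter Upk1b went the other way, at 6.70 with the Bmi1 label against 6.54. The keratins Krt7 and Krt19 had their higher values on the same arrays as the trophoblast list. Krt8 and Krt18 differed by only 0.04 and -0.02 within the replicate 2 arrays, where the trophoblast median was 1.01. The keratin anchoring list was higher on the same arrays too, at 8.24 and 8.35 against 7.99 and 8.11. The part of any tissue in the keratin values was not tested. On ES cell arrays the trophoblast list read 5.42 and 5.51 with the Bmi1 label against 5.40 and 5.17 without it, and the visceral endoderm list 5.78 and 5.82 against 5.62 and 5.73. Replicate 2 of the ES cells labelled Bmi1, where Krt8, Krt18 and Krt19 were high, was close to replicate 1 in the means of both lists. Single markers moved both ways between these replicates. Tfap2c read 7.55 and 8.51, Rhox6 6.57 and 5.77, and the endoderm marker Amn 7.15 and 6.22.

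**Figure D4:**
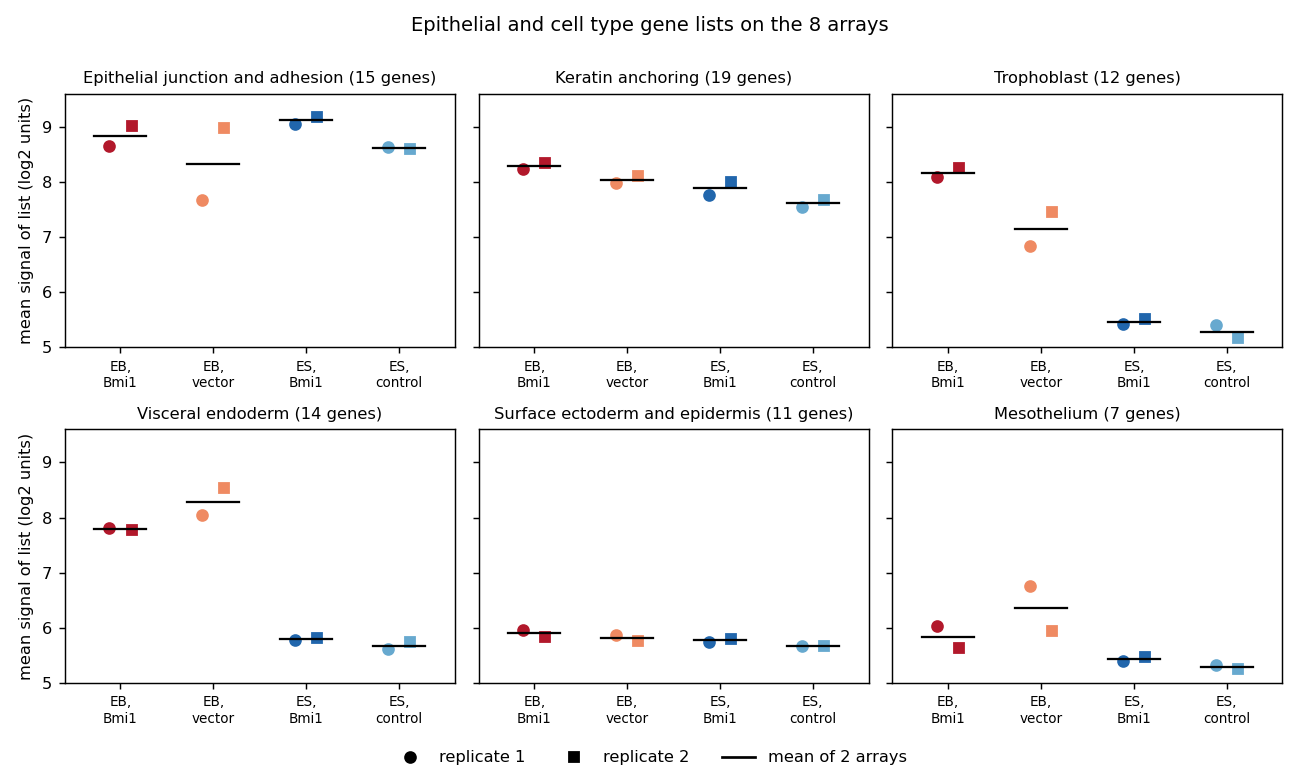
Mean signal in log2 units of 6 gene lists on each of the 8 arrays, with embryoid bodies labelled Bmi1 left of vector embryoid bodies and ES cells labelled Bmi1 left of control ES cells; circles are replicate 1 and squares replicate 2. The trophoblast list reads 8.10 and 8.25 in embryoid bodies labelled Bmi1, above 6.84 and 7.46 in vector embryoid bodies, and the surface ectoderm list stays between 5.67 and 5.97 throughout.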

How the data were processed

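The deposited values are log2 signals of 8 Affymetrix arrays. Per the submitters' processing notes the tool was RMA, with no version and no word on which arrays were normalized together. RNA was labelled with a one-cycle kit, per the labels. After 64 array controls were set aside, 45037 probe sets remained, of which 34945 had 1 gene symbol in the platform annotation, 932 several and 9160 none. No symbol changed against the current gene table and 204 had no match there. The brightest probe set stood for each of 18193 genes. Of these, 12982 were above the array's median on at least 2 arrays and were tested, and 5211 were left out as dim.

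One linear model with 4 groups was fitted with limma 3.58.1 (lmFit, eBayes) in R 4.3.3, with 4 residual degrees of freedom, Benjamini-Hochberg adjustment over all tested genes and a threshold of 0.05. SEs are those of the moderated fit, and the joint spread of both stages enters them. All p-values are two-sided. The script was tested on simulated data. With 2 arrays a group, precision is low.

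The replicate numbers of the embryoid body arrays mark the 2 sets seen in the distributions. Over genes, deviations from group means correlated at 0.72 between the first replicates of the embryoid bodies and at 0.03 and 0.04 between each of them and the first replicate of the ES cells labelled Bmi1. A block for the embryoid body set left 3 residual degrees of freedom.

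The 10 keratins, the related gene lists (118 entries, 6 without a named probe set), the tests and the motifs were chosen with earlier results of these data known. All members are described. Of each list up to 4 genes with the smallest p in a comparison may be named, and 3 most alike genes for Krt8, Krt18, Krt19, Krt5 and Krt17. Alternatives were the filter, the probe set rule, the scaling, the prior, array weights, 1 stage alone, the blocks, either control array of the ES cells alone, and each array left out in turn.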

Additional observations from a re-analysis of the deposited data

How the results depend on the processing

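With another scaling or prior, array weights or a block, the number of keratins called was 5 in each stage comparison covered. The filter and the probe set rule changed which keratins were tested. With the mean of probe sets Krt17 lay below the median on every array, so it was not tested and its stage calls were lost. In the other comparisons no keratin was called under any alternative that kept all 8 arrays. The same held in the fits of 1 stage or of the 6 numbered arrays. The replicate block of the embryoid body arrays changed no keratin call. With it 271 genes were called in embryoid bodies (18 without), 216 in ES cells (6 without) and 107 in the interaction (0 without), and the adjusted p of Krt7 in embryoid bodies was 0.0511 (0.463 with a block over the 6 numbered arrays). Gene counts over the alternatives without a block ran from 0 (array weights, and embryoid body arrays only) to 21 (mean of probe sets) in embryoid bodies and from 0 (quantile, and every probe set) to 641 (array weights) in ES cells. With every probe set 12653 and 12774 were called between the stages, over more features.

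With quantile normalization or median centring the median of the stratified keratins was -0.59 or -0.60 for the stage in vector samples and -0.34 or -0.38 in samples labelled Bmi1. Krt5 turned to -0.018 or -0.12 for the stage in samples labelled Bmi1. With median centring Krt5 turned to 0.0064 in ES cells and Krt19 to -0.0094 in the interaction. The untested Krt23 turned slightly negative with median centring for the stage in samples labelled Bmi1. None of these was a call, and the cause was not tested.

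Leaving out each array in turn, with a lone array assumed to vary like the other groups, called 0 to 1 keratins in embryoid bodies (Krt7, without vector replicate 2) and 4 to 5 for the stage in samples labelled Bmi1 (Krt8 lost, at 1.91 with an adjusted p of 0.0635). In embryoid bodies the median ran from 0.11 to 1.52 for simple and from 0.014 to 0.20 for stratified keratins, Krt8 from -0.070 to 1.44, Krt18 from -0.20 to 1.76, Krt19 from 0.50 to 1.60 and Krt17 from -0.026 to 0.14. In ES cells Krt8 ran from 0.47 to 1.95, Krt18 from 0.80 to 2.27, Krt19 from 0.25 to 1.83 and the simple median from 0.36 to 1.05, all without a call. There the stratified median ran from -0.088 to 0.092, Krt5 from -0.050 to 0.035 and Krt17 from -0.13 to 0.28. In the interaction the stratified median ran from -0.025 to 0.21, Krt8 from -1.28 to 0.23, Krt18 from -1.73 to 0.23, Krt19 from -0.78 to 0.80 and Krt17 from -0.22 to 0.19. For the stage the simple median ran from 2.36 to 3.68 in vector samples and from 2.01 to 3.54 in samples labelled Bmi1, and Krt5 from -0.30 to 0.17 in vector samples. Genes called ran from 0 to 218 in embryoid bodies, 0 to 50 in ES cells and 0 to 100 in the interaction.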

Other observations

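A probe set that names both Krt17 and Krt14 was in no comparison. It read 5.50 and 5.43 in embryoid bodies with the Bmi1 label against 5.63 and 5.11 in those with the vector, and 5.75 and 5.85 in ES cells labelled Bmi1 against 5.92 and 5.71 in control ES cells. Its stage difference was -0.44 log2 units in vector samples and -0.33 in samples labelled Bmi1.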
